A study of Mus musculus with 1 sample.

Results

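Genes that encode histone demethylases, histone deacetylases, Polycomb proteins and ATP-dependent chromatin remodellers were examined in RNA sequencing of 1 culture of mouse pancreas fibroblasts. The genes were taken by name: every row of the deposited table for a Kdm, Hdac, Sirt or numbered Smarca to Smarce gene, without Kdm5c and Kdm5d, together with 15 named Polycomb and SWI/SNF genes. This gave 59 of the 23386 genes of the table, of which 58 were protein-coding and 1, Smarca5-ps, was a pseudogene. The labels describe expanded fibroblasts of normal pancreas, on a background that mixes C57BL/6 and BALB/c, with the genotype tf1acre-, KrasWT and Tgfrb2flox/flox. The series set normal fibroblasts against cancer-associated fibroblasts of pancreas tumours, of which the library with the normal label is the sample used here. The value column of its table carries a CAF code, which disagrees with that label. With 1 library and no replicate, no difference between conditions was tested, and intervals (95%) reflect counting error alone.

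Chromatin regulators of these families add, remove or act on the histone marks and nucleosome positions that set which genes are open. Polycomb repressive complex 2 (PRC2) methylates histone H3 at lysine 27, Polycomb repressive complex 1 (PRC1) ubiquitylates histone H2A, and both hold developmental genes silent, whereas SWI/SNF complexes slide or evict nucleosomes and often oppose Polycomb. Demethylases remove methyl groups from histone lysines, and deacetylases and sirtuins remove acetyl groups from histones and other proteins. In fibroblasts these enzymes are known for guarding cell identity and for the control of proliferation and senescence.

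The library held 52494688 reads. The 8 fibroblast markers were all abundant, between 366 CPM (Pdgfra) and 3021 CPM (Col1a2), where CPM is reads per 1000000 reads in the table. Of the other cell types, mesothelial markers summed to 551 CPM, endothelial to 182 CPM, of which Kdr alone gave 181 CPM, acinar to 149 CPM, ductal and epithelial to 19.5 CPM and leukocyte markers to 10.4 CPM, against 12837 CPM for the fibroblast list. The lists differ in size, so the sums are not levels per gene. Each of the 4 mesothelial markers had between 90.7 CPM (Msln) and 218 CPM (Lrrn4). In reads per kilobase of merged exons per 1000000 reads, Lrrn4 (58.7) and Upk3b (41.0) stood above the fibroblast marker Pdgfra (36.5). Msln (29.6) and Wt1 (15.7) stood below Pdgfra, and the other fibroblast markers all stood above Lrrn4. The part of other cell types in the levels below was not tested. In a bulk library, fewer cells with a transcript and less of it per cell cannot be told apart.

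All 58 coding members were detected at 10 reads or more, against 67.6% of all coding genes. Of the members, 44 had at least 1000 reads, a count whose share over all coding genes was not computed. Ring1, the lowest of these at 1043 reads, stood above only 48.4% of detected coding genes in CPM. Together the 59 members held 0.370% of all reads (0.368% to 0.372%, exact Clopper-Pearson). To compare genes of different length, levels were divided by the length of the merged exons and are given as RPKM (reads per kilobase per 1000000 reads). The median of the coding members was 6.76 RPKM, against 4.93 RPKM for the 13889 coding genes with at least 10 reads and a length. Of the members, 37 of 58 lay above that second median, against 33.9% of all coding genes with a length. Without division by length, 41 of 58 lay above the 21.4 CPM median of detected coding genes, against 33.8% of all coding genes. Both medians split the detected coding genes evenly, so among detected genes alone the background is higher than these shares of all coding genes. The levels spread 500-fold, from Kdm4d at 0.0866 RPKM to Smarca4 at 43.3 RPKM. Members of the SWI/SNF complexes had the highest family median (11.3 RPKM, 13 of 13 above the coding median), followed by the Kdm genes (7.06 RPKM, 10 of 14), the Polycomb genes (6.13 RPKM, 6 of 11), the Hdac genes (4.44 RPKM, 4 of 11) and the sirtuins (3.94 RPKM, 3 of 7).

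**Figure D1:**
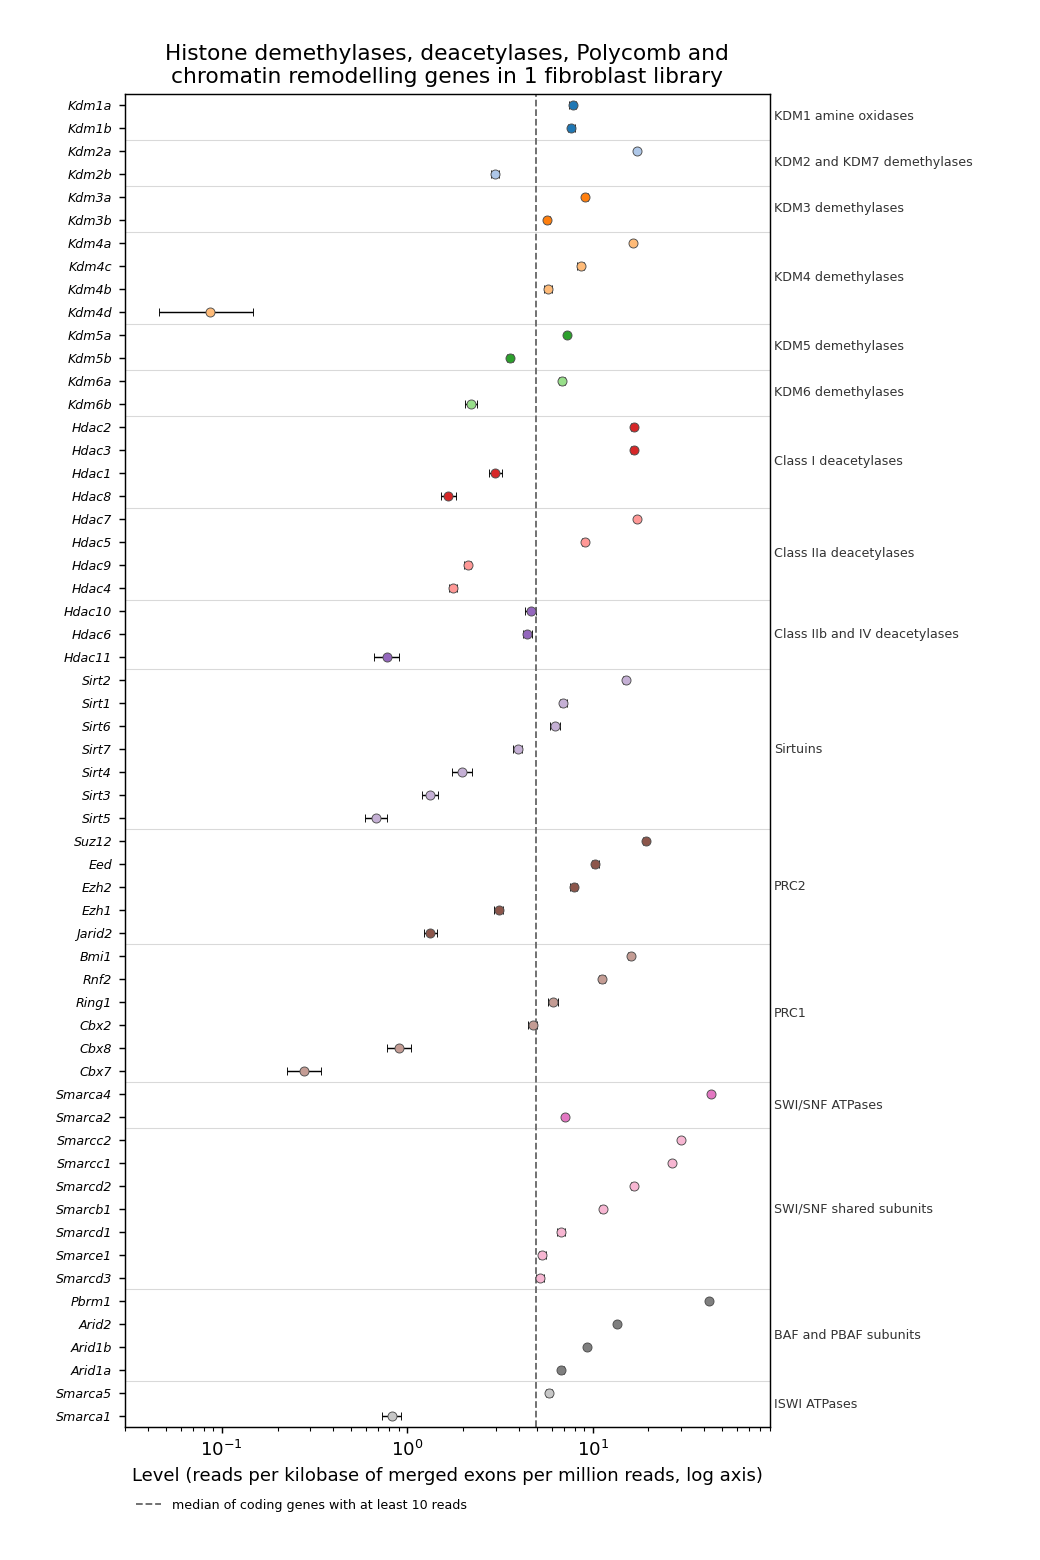
Level of each coding member in RPKM, with merged exons as the length (log axis), grouped by role, with points for the library's value and bars for the exact Poisson interval. The dashed line is the 4.93 RPKM median of coding genes with at least 10 reads; all SWI/SNF members lie to its right, and Kdm4d and Cbx7 lie farthest to its left.

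Among the demethylases, the lysine 36 enzyme Kdm2a stood first. Kdm2a, which binds unmethylated CpG islands, had 13088 reads, or 249 CPM (245 to 254) and 17.3 RPKM, and stood above 81.3% of detected coding genes. Its paralogue Kdm2b, which brings a variant PRC1 to CpG islands, had 1693 reads, 32.3 CPM and 2.97 RPKM. Their counting intervals lay far apart. The related demethylase gene Kdm7a, listed under the older name Jhdm1d and so outside the name rule, had 28.7 CPM and 2.86 RPKM.

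The flavin-dependent demethylases of lysine 4, Kdm1a (LSD1) and Kdm1b (LSD2), had similar read counts. Kdm1a had 2127 reads (40.5 CPM, 38.8 to 42.3) and Kdm1b 2214 reads (42.2 CPM, 40.4 to 44.0), intervals that overlap. The ratio of Kdm1a to Kdm1b was 1.02 with merged exons as the length (0.960 to 1.08), 0.909 with coding length and 1.58 with the length of 1 transcript, so the order of the pair depends on the length. The lysine 9 demethylases Kdm3a and Kdm3b had 75.0 CPM and 80.4 CPM, or 9.12 and 5.70 RPKM. Of the exon bases of Kdm3b, 24.6% overlap Gm26538 on the opposite strand, and the sources used here give no strand setting for the counting, so its level is uncertain.

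In the KDM4 subfamily, whose members act on methylated lysine 9 and some of them also on lysine 36, the order was clear. Kdm4a had 95.4 CPM (16.5 RPKM), Kdm4c 50.1 CPM (8.61 RPKM) and Kdm4b 28.0 CPM (5.73 RPKM). Kdm4d, an enzyme of the testis in mouse, had 13 reads, or 0.248 CPM (0.132 to 0.423), the lowest count of all 59 members. The lysine 4 demethylases Kdm5a and Kdm5b had 103 CPM and 59.5 CPM, a length-divided ratio of 2.03 (1.94 to 2.12). Of the enzymes that erase the PRC2 mark, the X-linked gene Kdm6a (UTX) had 57.3 CPM and 6.84 RPKM, while Kdm6b (JMJD3), known as inducible by inflammatory signals, had 15.4 CPM and 2.21 RPKM. Kdm6a was 3.10-fold above Kdm6b after division by length (2.86 to 3.35).

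Class I deacetylases, the catalytic subunits of nuclear corepressor complexes, were led by a pair of genes. Hdac2 had 3921 reads (74.7 CPM, 72.4 to 77.1; 16.7 RPKM). Hdac3, the enzyme of the NCoR complexes, had 3548 reads (67.6 CPM; 16.7 RPKM). The ratio of Hdac3 to Hdac2 after division by length was 0.999 (0.954 to 1.05), so they did not differ beyond counting error on that scale. The X-linked gene Hdac8 had 424 reads and 1.67 RPKM.

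Hdac1, which pairs with Hdac2 in the same complexes, had only 541 reads (10.3 CPM, 9.46 to 11.2; 2.99 RPKM), so that Hdac2 was 5.58-fold above it after division by length (5.10 to 6.12). This low count is uncertain, because 71.1% of the Hdac1 transcript matched annotated pseudogenes at 95% identity or more, and the sources used here do not say how reads that fit several places were counted. The coding sequence of Hdac1 (chromosome 4, 129516104 to 129542713, minus strand, GRCm38) was 99.4% identical over 1444 aligned bases to the processed pseudogene Gm10093 (chromosome 17, 78491582 to 78493025, plus strand). Their first 100 coding bases, shown because a read from this stretch has no base that tells the genes apart, were identical; the sequences are from GENCODE M21.
Hdac1: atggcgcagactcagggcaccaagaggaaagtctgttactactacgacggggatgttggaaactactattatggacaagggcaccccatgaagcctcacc
Gm10093: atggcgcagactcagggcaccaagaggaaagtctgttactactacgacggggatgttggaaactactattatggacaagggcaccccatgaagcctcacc

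Class IIa deacetylases, which shuttle between nucleus and cytoplasm and bind MEF2 factors, were led by Hdac7. Hdac7 had 6163 reads (117 CPM, 114 to 120; 17.4 RPKM) and Hdac5 4168 reads (79.4 CPM; 9.04 RPKM). Hdac9, at 31.0 CPM, and Hdac4, at 27.9 CPM, came to 2.11 and 1.76 RPKM; 22.4% of the exon bases of Hdac4 overlap Gm26720 on the opposite strand, so its level is uncertain too. Hdac7 made up 57.4% of the length-divided sum of these 4 genes. It was 9.85-fold above Hdac4 with merged exons as the length and 4.75-fold with coding length. Hdac6, the cytoplasmic tubulin deacetylase, had 25.8 CPM, its class IIb relative Hdac10 had 15.7 CPM, and the class IV gene Hdac11 had 157 reads, or 2.99 CPM.

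Sirtuins are NAD-dependent deacylases of several cell compartments. Sirt2, mainly cytoplasmic, was the highest at 76.1 CPM (73.7 to 78.5; 15.1 RPKM). The nuclear enzymes followed, with Sirt1 at 37.1 CPM (6.95 RPKM), Sirt6 at 17.4 CPM (6.27 RPKM) and the nucleolar Sirt7 at 20.3 CPM (3.94 RPKM). All 3 mitochondrial sirtuins were lower on both scales: Sirt4 had 1.98 RPKM, Sirt3 1.33 RPKM and Sirt5 0.682 RPKM, or 4.74, 7.92 and 4.15 CPM.

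Transcripts of all core subunits of PRC2 among the members were detected. Suz12, the scaffold of the complex, had 5005 reads (95.3 CPM, 92.7 to 98.0; 19.3 RPKM), and Eed, which reads the mark that PRC2 writes, had 2070 reads (39.4 CPM; 10.3 RPKM). Of the alternative methyltransferases, Ezh2, the form of dividing cells, had 2764 reads (52.7 CPM, 50.7 to 54.7; 7.88 RPKM) and Ezh1, the form of resting cells, had 1215 reads (23.1 CPM, 21.9 to 24.5; 3.11 RPKM). Ezh2 held 71.7% of the length-divided sum of the pair and stood 2.53-fold above Ezh1 (2.37 to 2.71). Jarid2, an accessory subunit that guides PRC2 to its targets, had 681 reads, 13.0 CPM and 1.34 RPKM.

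Added up by position in the complex, Ezh1 and Ezh2 came to 11.0 RPKM, beside 10.3 RPKM for Eed, 19.3 RPKM for Suz12 and 75.0 RPKM for the histone-binding subunits Rbbp4 and Rbbp7, which other complexes share. The Suz12 to Ezh2 ratio was 2.45 with merged exons, 1.82 with coding length and 1.15 with the length of 1 transcript. With the length of 1 transcript the sum of Ezh1 and Ezh2 was 24.4 RPKM and Suz12 had 21.8 RPKM, the reverse of their order with merged exons. Of the 7 further PRC2 genes, all were detected and 4 lay above the coding median, against 67.6% and 33.9% of all coding genes. Rbbp7 (61.1 RPKM) was the highest and the accessory gene Phf19 (1.78 RPKM) the lowest.

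In PRC1, the ubiquitin ligase subunits Rnf2 (RING1B) and Ring1 (RING1A) had 46.5 CPM and 19.9 CPM, or 11.3 and 6.13 RPKM, a ratio of 1.84 (1.71 to 1.98) that was 2.83 with coding length and 1.49 with the length of 1 transcript. Bmi1, the ring-finger partner of canonical PRC1 and a repressor of the Cdkn2a locus, had 63.6 CPM (61.4 to 65.8) and 16.0 RPKM. A processed pseudogene matched 73.9% of the Bmi1 transcript at 95% identity or more, so its level is uncertain. The chromodomain readers among the members were uneven. Cbx2 had 1059 reads (20.2 CPM, or 4.74 RPKM), close to the coding median of 4.93 RPKM. Lower were Cbx8 with 175 reads (3.33 CPM, or 0.907 RPKM) and Cbx7 with 95 reads (1.81 CPM, 1.46 to 2.21, or 0.279 RPKM). Cbx2 held 80.0% of the length-divided sum of these 3 genes. Over all 5 Cbx readers of PRC1 the sum was 25.8 RPKM, and Cbx6, which is not a member here, gave 47.4% of it. Of the 15 further PRC1 genes, all were detected and 9 lay above the coding median, against 67.6% and 33.9% of all coding genes. Their levels ran from Pcgf1 at 1.57 RPKM to Yaf2 at 21.1 RPKM.

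**Figure D2:**
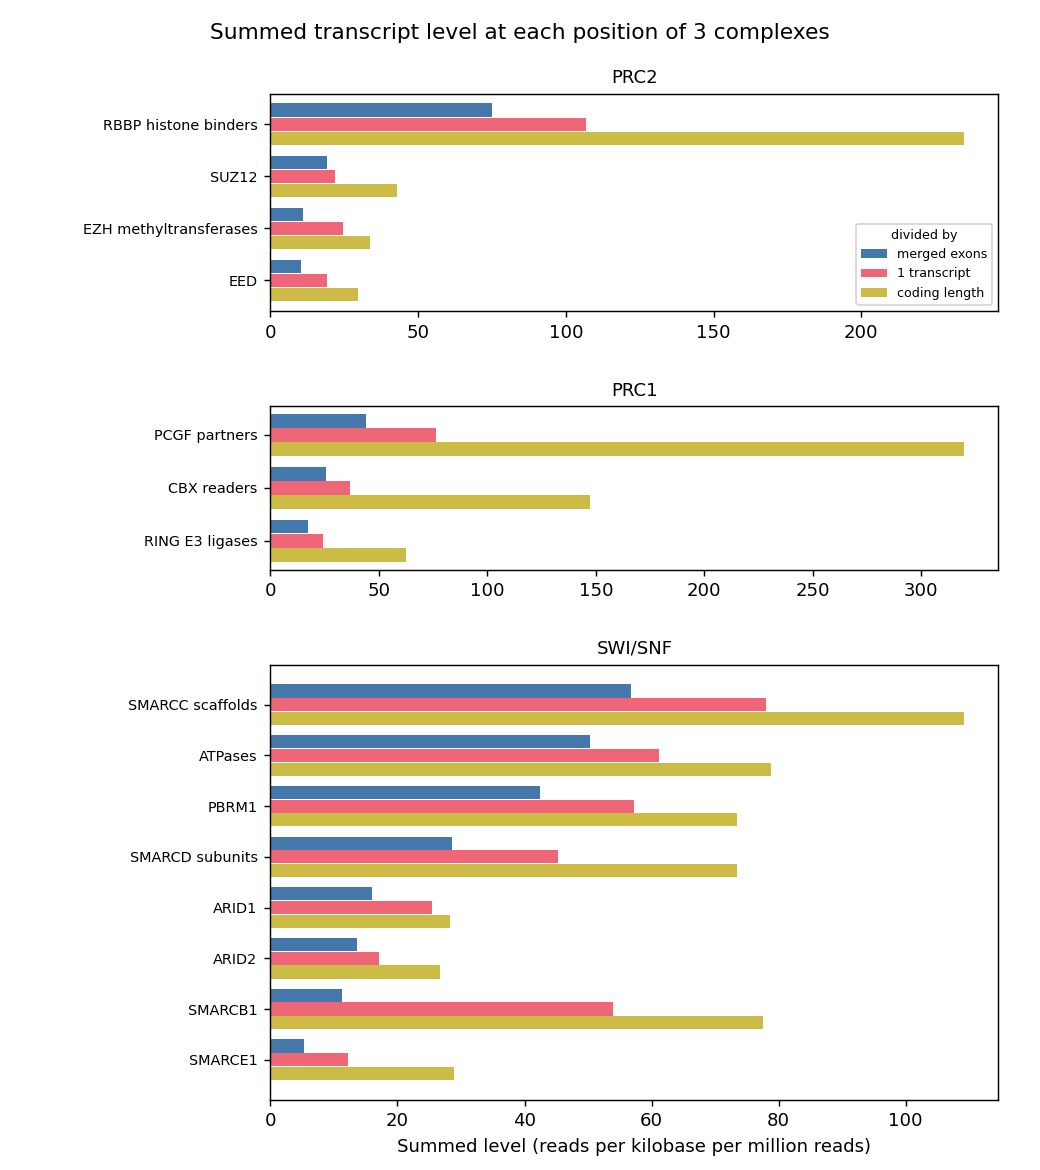
Summed level of the genes that can fill each position of PRC2, PRC1 and SWI/SNF, in RPKM, with the length taken from merged exons, from 1 transcript or from the coding part. The SWI/SNF ATPase (50.3 RPKM) and SMARCC positions (56.8 RPKM) are the highest of that complex on all 3 scales, while the place of SMARCB1 moves with the length.

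The SWI/SNF genes held the highest count and the highest length-divided level among the members. Pbrm1, the bromodomain subunit that defines the PBAF form, had 19709 reads (375 CPM, 370 to 381; 42.4 RPKM), the highest count of all 59 members. The ATPase gene Smarca4 (BRG1) had 14709 reads (280 CPM, 276 to 285; 43.3 RPKM) and stood above 94.2% of detected coding genes. The alternative ATPase gene Smarca2 (BRM) had 5297 reads (101 CPM; 7.07 RPKM). Smarca4 was 2.78-fold above Smarca2 in reads (2.69 to 2.87), 6.12-fold after division by merged exons and 2.75-fold after division by coding length. With merged exons the interval of Smarca4 (42.6 to 44.0 RPKM) overlapped that of Pbrm1 (41.9 to 43.0 RPKM). With the length of 1 transcript or with coding length, Pbrm1 and Smarcb1 stood above Smarca4.

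The scaffold genes Smarcc1 (BAF155) and Smarcc2 (BAF170) had 210 CPM (206 to 214) and 166 CPM (163 to 170). After division by merged exons they had 26.8 and 30.0 RPKM, so that Smarcc1 led in reads and by coding length and Smarcc2 by merged exons. A processed pseudogene matched 17.6% of the Smarcc1 transcript. Smarcb1 (SNF5), the subunit lost in rhabdoid tumours of humans, had 89.6 CPM and 11.3 RPKM. Among the SMARCD paralogues, of which a complex takes 1, Smarcd2 had 59.6 CPM, Smarcd1 27.2 CPM and Smarcd3, known from heart and muscle, 26.7 CPM. Smarcd2 held 58.1% of their length-divided sum. Of the exon bases of Smarcd3, 48.2% overlap another gene, mainly Chpf2 on the opposite strand, so its level is uncertain. Opposite-strand genes also overlap 17.9% of the exon bases of Hdac11 and 12.7% each of those of Sirt3 and Smarcd1. Smarce1 had 35.6 CPM and 5.35 RPKM, and pseudogenes matched 42.3% of its transcript.

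The 4 members grouped as BAF and PBAF subunits, Pbrm1 among them, were all above the coding median. Arid2, the DNA-binding subunit of PBAF, had 146 CPM (143 to 149; 13.6 RPKM). Its BAF counterparts Arid1b and Arid1a had 117 CPM (9.28 RPKM) and 77.7 CPM (6.77 RPKM), with Arid1b 1.37-fold above Arid1a (1.32 to 1.43). The length-divided sum of Arid1a and Arid1b was 16.1 RPKM. Of the 17 further SWI/SNF genes, 16 were detected and 7 lay above the coding median, against 67.6% and 33.9% of all coding genes. Their list median was 2.96 RPKM, below the 4.93 RPKM coding median and the lowest of the 9 lists of other chromatin genes. The high SWI/SNF levels above therefore hold for the members. The highest of the 17 further genes was Dpf2 at 9.90 RPKM. The lowest was Actl6b, the neuronal alternative to Actl6a, at 6 reads, or 0.114 CPM. Actl6a had 28.2 CPM. The neuronal and muscle forms Dpf1 and Dpf3 had 7.92 CPM and 11 reads, and Bcl11a had 25 reads.

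**Figure D3:**
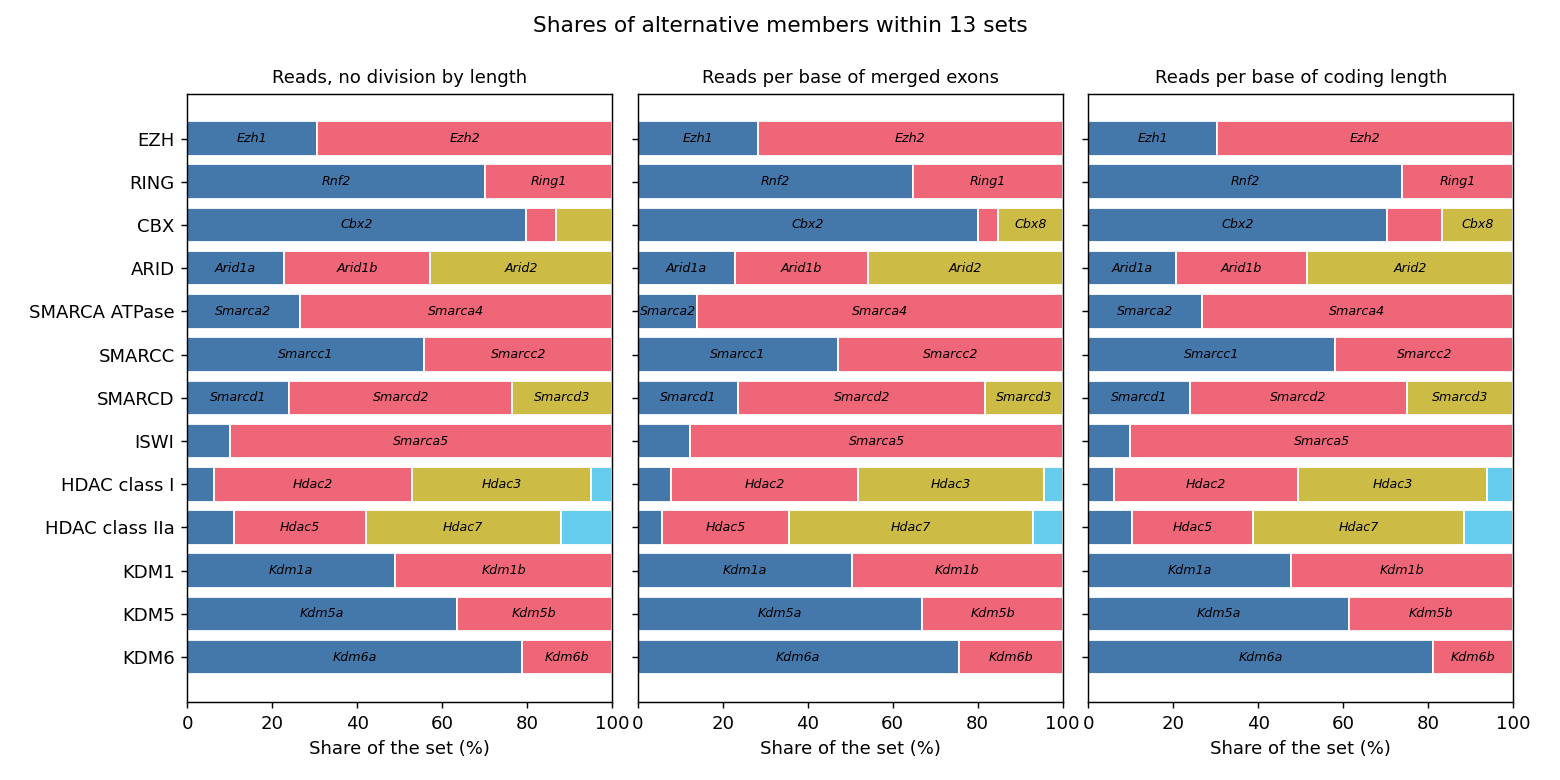
Share of each paralogue or alternative subunit in its set, in reads (left), in reads per base of merged exons (middle) and in reads per base of coding length (right), for 13 sets. Segments run left to right in order of gene number in each set except RING. Segments too narrow for a name are Cbx7, Smarca1, Hdac1, Hdac8, Hdac4 and Hdac9 and, in the left panel only, Cbx8. Ezh2, Smarca4, Hdac7 and Cbx2 lead their sets in every panel, while the leader of the SMARCC, KDM1 and class I deacetylase sets changes between panels.

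Smarca5 and Smarca1 share the Smarc name but encode the ATPases of ISWI remodellers, which space nucleosomes. Smarca5 (SNF2H) had 2381 reads (45.4 CPM, 43.6 to 47.2; 5.83 RPKM) and the X-linked gene Smarca1 (SNF2L) had 265 reads (5.05 CPM; 0.825 RPKM), a ratio of 7.07 (6.22 to 8.06). The pseudogene row Smarca5-ps had 87 reads (1.66 CPM). Annotated copies matched 53.2% of the Smarca5 transcript. The sequences of Smarca5 (chromosome 8, 80698507 to 80739497, minus strand, GRCm38) and Smarca5-ps (chromosome 4, 145464204 to 145467420, plus strand) were 96.8% identical over 3163 bases. Coding bases 151 to 250 of Smarca5 and the matching stretch of Smarca5-ps are shown from GENCODE M21, with the 2 differing bases in capitals, because reads that cover neither base fit both genes.
Smarca5: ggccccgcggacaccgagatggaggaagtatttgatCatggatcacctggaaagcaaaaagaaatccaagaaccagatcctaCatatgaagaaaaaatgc
Smarca5-ps: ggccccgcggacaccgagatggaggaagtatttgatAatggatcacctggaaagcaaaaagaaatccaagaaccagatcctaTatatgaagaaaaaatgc

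The partners and the opposing enzymes of the members were measured from 9 lists. Of 102 genes, 101 were detected and 72 lay above the coding median, against 67.6% and 33.9% of all coding genes. The same shares are the background for the counts of each list below. Among detected coding genes alone that median makes an even split. Corepressor complexes that carry class I deacetylases were abundant, with 19 of 23 genes above the coding median and a list median of 9.37 RPKM; Mta2, a subunit of the NuRD complex, had 62.2 RPKM and its remodelling ATPase Chd4 had 448 CPM, while Rcor3 of the CoREST complex was lowest at 1.38 RPKM. Ncor1, a scaffold of the NCoR complex, had 302 CPM. Sin3a and Sin3b, the scaffolds of the SIN3 complex, had 105 CPM and 74.9 CPM.

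Writers of the marks that the demethylases remove were also present. All 5 lysine 36 methyltransferase genes lay above the coding median (list median 17.0 RPKM), led by Nsd1 at 22.9 RPKM. Of the lysine 4 group 10 of 11 did (10.7 RPKM). That group also counts Ash2l, Rbbp5, Men1, Wdr5 and Dpy30, which are subunits of methyltransferase complexes and not the enzymes. Its enzyme genes ran from Setd1b at 2.12 RPKM to Setd1a at 13.7 RPKM. Of the lysine 9 group 4 of 6 lay above the coding median (8.36 RPKM), with Ehmt2 (G9a) highest at 30.3 RPKM. Histone acetyltransferases, which oppose the deacetylases, had a list median of 14.4 RPKM, with 8 of 10 above the coding median. Ep300 and Crebbp, the large coactivator acetyltransferases, had 173 CPM and 203 CPM. Among demethylases not named Kdm, 6 of 8 lay above the median, led by Jmjd6 at 9.40 RPKM, and Uty, the Y-linked relative of Kdm6a, had 0.305 CPM.

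**Figure D4:**
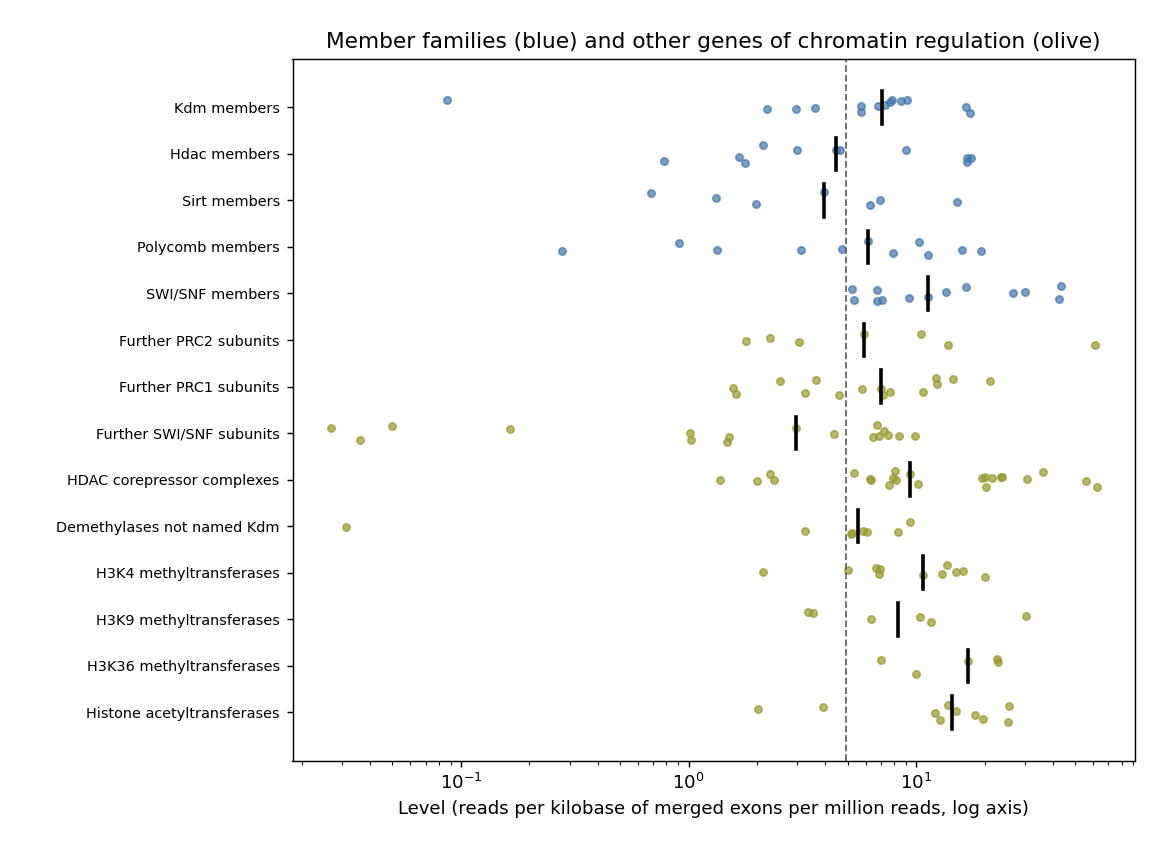
Levels of the member families (blue) and of 9 lists of other chromatin genes (olive) in RPKM, with merged exons as the length, on a log axis. Each point is a gene, the black bar is the median of the row, and the dashed line is the 4.93 RPKM median of detected coding genes; the SWI/SNF members have no point to the left of it.

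Promoters of the members, a property that the choice by name did not use, were rich in CpG dinucleotides. RefSeq promoter windows (GRCm38.p6, 250 bases before to 50 bases after a start) were found for 47 of the 58 coding members, 61 windows in all. These held a median of 24 CpGs, against 14 in the 20000 windows found for 16380 of the 20559 coding genes of the table and 19 in the windows found for 11031 of the 13903 coding genes with at least 10 reads. Fewer than 10 CpGs were found in 14.8% of the members' windows, against 40.8% and 24.1% in the other 2 sets. The windows of Hdac9, Hdac8, Smarca1 and Smarcd2 were among those with fewer than 10. The members at the ends of the range of levels, with merged exons as the length, both had CpGs there. Smarca4, the highest on that scale, had 33 CpGs and Kdm4d, the lowest, had 17, while the scarce Cbx7 had 33. The 250 bases before the start of Smarca4 (chr9:21615919-21616168, plus strand) and Kdm4d (chr9:14500483-14500732, minus strand), both on chromosome 9 of GRCm38.p6, are shown from RefSeq for that contrast, with CpGs in capitals.
Smarca4: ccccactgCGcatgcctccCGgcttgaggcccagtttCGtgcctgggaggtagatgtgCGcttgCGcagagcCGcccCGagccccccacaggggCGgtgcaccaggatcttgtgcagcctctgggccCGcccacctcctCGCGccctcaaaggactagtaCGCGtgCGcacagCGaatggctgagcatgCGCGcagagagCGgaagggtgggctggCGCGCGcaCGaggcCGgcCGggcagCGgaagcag
Kdm4d: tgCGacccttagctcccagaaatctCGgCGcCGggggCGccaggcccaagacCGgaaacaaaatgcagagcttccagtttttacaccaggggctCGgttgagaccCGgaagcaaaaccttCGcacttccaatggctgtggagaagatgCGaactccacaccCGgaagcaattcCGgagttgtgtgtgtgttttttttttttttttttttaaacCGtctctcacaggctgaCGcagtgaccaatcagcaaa

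**Figure D5:**
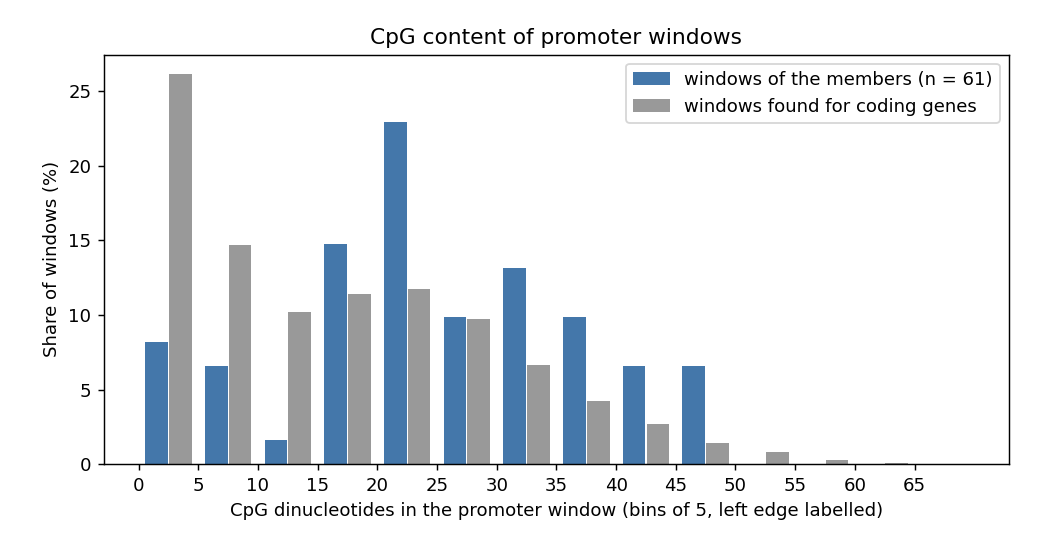
Share of promoter windows (percent) by number of CpG dinucleotides, in bins of 5, for the 61 windows of the members (blue) and the 20000 windows found for 16380 coding genes of the table (grey). The members' windows centre on a median of 24 CpGs and the others on 14.

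Short motifs were counted in the same windows on both strands. E2F-type octamers (TTTGGCGC, TTTCCCGC, TTTGCCGC or TTTCGCGC) stood in 8.20% of the members' windows (5 of 61) and in 2.96% of the windows found for coding genes, and the members with one were Arid1a, Ezh2, Sirt4, Smarcd1 and Suz12. The NRF1-type octamer GCATGCGC stood in 9.84% against 3.71%, in windows of Sirt6, Sirt7, Smarca4, Smarca5, Smarcb1 and Smarcc1. A CCAAT box (CCAAT) stood in 36.1% against 38.3%, an ETS-type motif (CCGGAAG) in 11.5% against 11.9%, a YY1-type motif (AAGATGGCG) in 1.64% against 1.95% and a TATA box (TATAAA) in 6.56% against 12.3%. These are matches of letters in CpG-rich windows and were not tested.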

How the data were processed

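Per the labels' protocols, TRIzol RNA of 1 culture was made into a SOLiD library. The authors' deposited signal gives 1 value for each of 24214 rows; the submitters' processing notes name DESeq and mm10 without a role, while aligner, counter, strand setting, annotation and filters are each not given in the sources used here. All 20976 values above 0 lay within 0.006 of a whole multiple of 1.18, so whole reads were recovered with a size factor of 0.850 (52494688 reads; 1 read is 0.0190 CPM). On simulated libraries of 3 size factors the reads of 100% of 23386 genes came back. Rows with a copy suffix were summed. Merged exon, transcript and coding lengths came from GENCODE M21 (99.7% of coding genes), and current symbols from RefSeq accessions or, where an accession had no match, from symbols and synonyms. Intervals are exact Poisson for levels and Clopper-Pearson for shares and ratios; PCR reads are not independent molecules, so they cover counting error only. Copies were sought with BLAST+ 2.17.0 (identity of at least 95% over at least 50 bases). The design assumed reads; no test was possible with 1 library, and the planned comparison of proteins was not run. All members, the highest and lowest genes of each other list and alternative subunits were named; further genes of these lists, motifs, the printed sequences and the sums by position were chosen after values were seen. Members and lists were chosen with earlier results of these data known. Tools were scipy 1.17.1, pandas 2.3.3 and numpy 2.4.6 in Python 3.11.15, with figures by matplotlib 3.10.9.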

Additional observations from a re-analysis of the deposited data

How the results depend on the processing

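With 1 library there was no replicate to leave out. No paired analysis was possible because a single sample has no partner. The count of 58 detected coding members was 58 at 1 read and 57 at 50 reads. The median of the members over that of detected coding genes was 1.93 in reads and 1.37 in reads per kilobase. It stayed at 1.93 with rows of a gene left unsummed. A total of coding genes, or a total without the 100 most abundant genes, could not change it. The total cancels in a ratio within 1 library. Members above the coding median numbered 41 in reads and 37 in reads per kilobase, and 49 or 35 when that median was taken over genes with at least 1 or 50 reads. Of 16 role groups, 13 had a median above the coding median in reads and 12 in reads per kilobase; division by length turned the KDM6 group to 0.917, the ISWI group to 0.675 and the PRC1 group to 1.10 times the coding median. Of 13 paralogue sets, 11 had the same leader without division by length, 10 with coding length and 13 with the length of 1 transcript, a setting chosen after seeing the data. Without division, the share of Kdm1a was 49.0% and that of Smarcc2 44.2%, and with coding length 47.6% and 41.9%; Hdac2 held 43.3% with coding length, behind Hdac3. Depth limits Kdm4d, at 13 reads, more than the 44 members of at least 1000 reads. The part of copies in the levels of Hdac1, Bmi1, Smarca5 and Smarce1 was not tested.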
